A study of Mus musculus with 9 samples.

Results

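Cells sorted for a Sox2 reporter from the subventricular zone (SVZ), the neurogenic layer beside the lateral ventricle, were set against cells sorted for a doublecortin (DCX) reporter from the hippocampus of adult mice. The comparison uses all arrays whose titles name these groups, 6 of the 9 arrays of the series, 3 in each group. The other 3 arrays hold Sox2-GFP cells of the hippocampus and enter below only where they are named and in the shared estimate of the spread. The SVZ group came from Sox2-GFP mice, a transgenic line in which the Sox2 promoter drives green fluorescent protein. The hippocampal group came from DCX-DsRed mice, a transgenic line in which the Dcx promoter drives a red fluorescent protein. Mice of both lines were 6 to 8 weeks old, tissue of 10 dissections was pooled per experiment, and each array carries amplified RNA of 1000 sorted cells. The labels give no sex or background strain, and they do not say whether the replicates A, B and C of a group came from separate pools, so each p-value reflects no more than how far these arrays vary, and that variation may be technical. The groups differ in region, reporter and mouse line at once, and these cannot be told apart. In sorted bulk RNA, fewer cells of a type and less RNA per cell cannot be told apart either.

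Both regions make neurons in adult life. In the SVZ, astrocyte-like stem cells give rise to dividing precursors and then to neuroblasts, which carry Dcx, migrate to the olfactory bulb and become mostly GABAergic interneurons. In the dentate gyrus of the hippocampus, stem cells of the same kind give rise to Dcx-positive neuroblasts that mature into glutamatergic granule cells. Sox2 is a transcription factor of neural stem cells that astrocytes and ependymal cells also carry.

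Levels are log2 signal minus the array's own 75th percentile, so that 0 is that percentile and 1 unit is a factor of 2 on the signal scale. Where 3 values of a group are given, they stand for replicates A, B and C in that order. Levels are compared only between arrays, never between genes. Differences are SVZ Sox2-GFP minus hippocampus DCX-DsRed with their standard error (SE), from limma fitted over 24891 genes on all 9 arrays, and a gene is called where the Benjamini-Hochberg adjusted p is under 0.05. An array had 80.3% to 88.3% of its probes well above background. Across genes, which are not independent replicates, SVZ arrays correlated with each other at 0.82 to 0.84, DCX-DsRed arrays at 0.87 to 0.92, and arrays of different groups at 0.78 to 0.81. Slide 1 carried SVZ replicate A with DCX-DsRed replicates A and B. Slide 3 carried SVZ replicates B and C with DCX-DsRed replicate C. Differences can therefore also be read within slides, and some are given so.

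Of the genes tested, 135 were called higher in SVZ Sox2-GFP cells (0.542%) and 250 lower (1.00%). An unadjusted limma p under 0.05 was found in 13.7% of all genes, in either direction, and these shares are those to hold beside the list counts below. The median difference over all genes was -0.028. In each of the 385 called genes the groups did not overlap. The same sign on both slides, seen in all of them, follows from this and is not a second check. With slide as a fixed block in the model, 336 of the 385 calls still passed. Of 117 called genes with several probes, 100 had all probes on the same side. Hippocampus Sox2-GFP replicate C, which enters only the spread, stood apart from its group, and without it, an alternative chosen after seeing the data, 390 genes were called higher and 457 lower. Without DCX-DsRed replicate A the counts were 20 and 29, without B 36 and 50, and without C 63 and 98. Without SVZ replicate A they were 85 and 165, without B 55 and 151, and without C 41 and 87.

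The differences of all 21 measured myelinating oligodendrocyte genes were below 0, 5 of them called as lower in SVZ cells. Those of 21 of 25 astrocyte genes were above 0, 3 of them called as higher in SVZ cells. The mean level of the 21 measured myelinating oligodendrocyte genes was 0.36, 0.84 and -0.45 on the SVZ arrays and 3.33, 3.31 and 3.59 on the DCX-DsRed arrays. The 25 astrocyte genes averaged 2.63, 2.89 and 3.56 on the SVZ arrays and 0.61, 0.62 and 1.099 on the DCX-DsRed arrays. On the hippocampus Sox2-GFP arrays the myelin list averaged 0.063, 0.14 and -2.71 and the astrocyte list 2.56, 2.72 and 0.057. Replicates A and B of those arrays thus lay near the SVZ arrays in both lists, which are not particular to SVZ cells. In neither list did the array means of the SVZ and DCX-DsRed groups overlap. This was not particular to these lists. The array means also did not overlap in the ependymal list, at -1.37 to -0.26 on the SVZ arrays and -2.55 to -1.89 on the DCX-DsRed arrays. Nor did they in the stem and progenitor, oligodendrocyte precursor, mitosis, hedgehog and IGF lists, among others. In the newborn neuron and olfactory interneuron lists the array means overlapped, with SVZ replicate C away from replicates A and B.

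**Figure D1:**
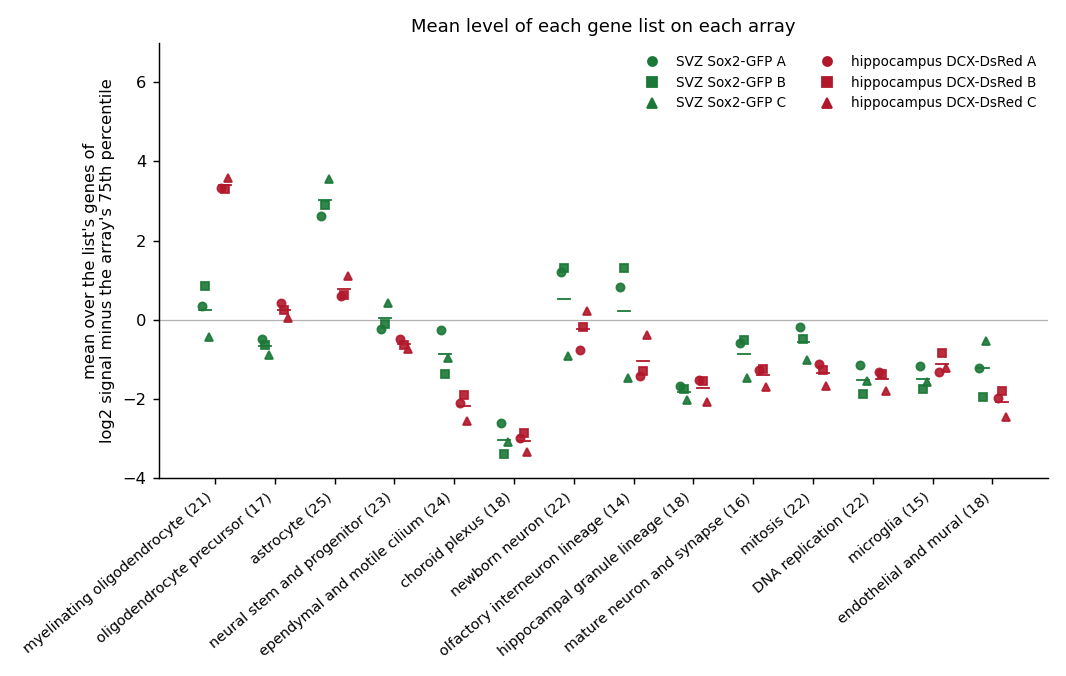
Mean level of 14 gene lists on each of the 6 arrays (log2 signal minus the array's 75th percentile, averaged over the measured genes of the list, whose number is in parentheses). Green marks SVZ Sox2-GFP and red hippocampus DCX-DsRed, symbols mark replicates A, B and C, and bars mark group means. Myelin genes lie at 3.31 to 3.59 on the DCX-DsRed arrays and at -0.45 to 0.84 on the SVZ arrays, while in the newborn neuron and olfactory interneuron lists SVZ replicate C lies below SVZ replicates A and B.

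All 21 myelinating oligodendrocyte genes passed the filter on dim probes (3 or more of the 9 arrays well above background), and all 21 differences were negative, with a median of -3.20. The median was -2.76 within slide 1 and -3.57 within slide 3. In 20 of the 21 every SVZ array lay below every DCX-DsRed array, against 10.4% of all genes tested. The exception was Nkx6-2, a homeobox factor of oligodendrocytes, with -1.15, -2.74 and -2.35 on the SVZ arrays and -0.082, -0.28 and -1.63 on the DCX-DsRed arrays. Of the 21 genes, 5 were called lower, where 1.00% of all genes were.

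Trf, which encodes the iron carrier transferrin and is made by oligodendrocytes in the brain, read 0.98, 0.71 and -1.05 on the SVZ arrays and 5.24, 5.24 and 5.73 on the DCX-DsRed arrays. All SVZ arrays were low and all DCX-DsRed arrays high, with a 36.5-fold gap between the means. The difference of -5.19 (SE 0.60) had an adjusted p of 0.0105 in limma and stood at -4.26 and -5.90 within slides 1 and 3. Gjb1, the gap junction protein connexin 32 of myelinating cells, read -1.89, -2.35 and -2.68 against 2.01, 1.87 and 2.13. Again no arrays overlapped, and the difference was -4.31 (SE 0.48, limma adjusted p = 0.00862). Mal, a proteolipid of compact myelin, read 1.98, 2.15 and 1.37 on the SVZ arrays and 4.99, 4.75 and 5.44 on the DCX-DsRed arrays. It differed by -3.23 (SE 0.34, limma adjusted p = 0.00726). Fa2h, the hydroxylase that makes the 2-hydroxy fatty acids of myelin lipids, read 0.57, 0.45 and 0.058 against 3.71, 3.50 and 4.11, a difference of -3.42 (SE 0.62, limma adjusted p = 0.0397). The fifth called gene, Cldn11, a tight junction protein of myelin outside the naming rule and named after its values were seen, read -0.16, 0.71 and -1.12 against 2.99, 3.03 and 2.89 and differed by -3.16 (limma adjusted p = 0.0252).

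Other structural myelin genes differed by a like amount and were not called. Mbp, myelin basic protein, read 1.55, 3.12 and -0.48 on the SVZ arrays and 5.08, 5.09 and 5.52 on the DCX-DsRed arrays, a difference of -3.83 (SE 1.35, limma adjusted p = 0.246). Mog, a glycoprotein of the outer myelin surface, read 1.40, 1.36 and -0.56 against 3.88, 4.44 and 4.78 (limma adjusted p = 0.116). In both genes the groups did not overlap, and all 6 arrays were well above background. Summed over the list, the log2 signal ran from 5.02 to 6.63 on the SVZ arrays and from 8.57 to 8.95 on the DCX-DsRed arrays, and the part that oligodendrocytes in the sorted cells have in the other differences was not tested. The fit takes its spread from all 9 arrays, and on the hippocampus Sox2-GFP arrays Mbp read 1.97, 2.56 and -2.48. Without hippocampus Sox2-GFP replicate C, 12 of the 21 were called lower, with only the 6 arrays compared, 8, and with slide as a fixed block, 9. Over all 24891 genes these settings, in the same order, called 457, 276 and 442 lower, against 250 as reported. When 1 of the 6 arrays was left out, between 1 and 4 were called: without DCX-DsRed replicate A only 1, without SVZ replicates A and C and DCX-DsRed replicates B and C 3 each, and without SVZ replicate B 4. Without DCX-DsRed replicate A, Trf and Gjb1 missed the threshold (limma adjusted p = 0.0538 and 0.0519). Fa2h missed it without any 1 of the 6 arrays (0.0909 to 0.134), and Trf differed by -4.56 without SVZ replicate C.

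Genes of oligodendrocyte precursors, the dividing cells that feed the lineage, gave no call. None of 17 was called in limma (0 higher and 2 lower at an unadjusted p under 0.05, where 13.7% of all genes lay under it in either direction), 13 differences were negative, 6 genes had every SVZ array below every DCX-DsRed array, against 10.4% of all genes, and the median was -0.69 (-0.15 within slide 3). Sox8, a transcription factor of the lineage, had the smallest p of the list and read 0.16, 0.28 and 0.15 against 2.81, 2.14 and 3.22, a difference of -2.53 (SE 0.60, limma adjusted p = 0.0974, or 0.0447 with slide as a fixed block).

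Astrocyte genes ran the other way. Of 25 measured genes, 3 were called higher, against 0.542% of all genes, and in 19 every SVZ array lay above every DCX-DsRed array, against 10.6% of all genes tested. The median difference was 2.57, 2.22 within slide 1 and 2.24 within slide 3. Id4, an inhibitor of basic helix-loop-helix factors downstream of BMP signals, read 2.50, 3.18 and 3.87 on the SVZ arrays and -2.53, -0.74 and -1.39 on the DCX-DsRed arrays. Its groups were far apart, and the difference was 4.73 (SE 0.55, limma adjusted p = 0.0103), 4.13 within slide 1 and 4.92 within slide 3. Clu, the secreted chaperone clusterin, read 3.70, 3.51 and 4.80 against 0.19, -1.25 and 0.96 and differed by 4.04 (SE 0.61, limma adjusted p = 0.0228). Slc7a10, a transporter of small neutral amino acids in astrocytes, read 2.67, 3.13 and 3.93 against -0.43, -1.12 and 0.14, with a difference of 3.71 (SE 0.45, limma adjusted p = 0.0124).

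Several defining astrocyte genes had gaps of similar size that missed the threshold. Aqp4, the water channel of astrocyte endfeet, read 3.59, 3.71 and 4.37 on the SVZ arrays and 0.36, -0.10 and 0.59 on the DCX-DsRed arrays, a difference of 3.60 (SE 1.26, limma adjusted p = 0.239). Gjb6, the gap junction protein connexin 30, read 1.13, 1.85 and 2.74 against -2.85, -1.94 and -3.15 (limma adjusted p = 0.161). Aldh1l1, a folate enzyme used to mark astrocytes, read 1.43, 2.17 and 3.74 against -0.47, -0.44 and -0.027 (limma adjusted p = 0.184). All 3 separated the groups on every array.

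A part of the list did not separate them. Gfap, the intermediate filament of astrocytes and SVZ stem cells, overlapped at 1.19, 1.14 and 2.37 against 1.78, 1.52 and 1.69, with probes that disagreed in sign, and differed by -0.10 (SE 0.60, limma adjusted p = 0.975). S100b, a calcium-binding protein that oligodendrocytes also make, read 3.10, 3.34 and 3.27 against 3.69, 3.18 and 3.81 and also overlapped. The other 2 negative differences were those of Mfge8 (-0.21) and Id3 (-0.12). Without hippocampus Sox2-GFP replicate C, on which Aqp4 read -1.81 against 3.27 and 3.53 on replicates A and B, 15 of the 25 astrocyte genes were called higher, with only the 6 arrays compared, 9, and with slide as a fixed block, 15, Aqp4 among them (limma adjusted p = 0.0122). Over all 24891 genes these settings, in the same order, called 390, 208 and 352 higher, against 135 as reported. Leaving out 1 of the 6 arrays gave 1 to 3 calls: 1 without DCX-DsRed replicate A, 3 without DCX-DsRed replicate C and 2 without each other array. Clu missed the threshold without any array but DCX-DsRed replicate C (limma adjusted p up to 0.0873), and Slc7a10 without DCX-DsRed replicate A (0.0566).

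**Figure D2:**
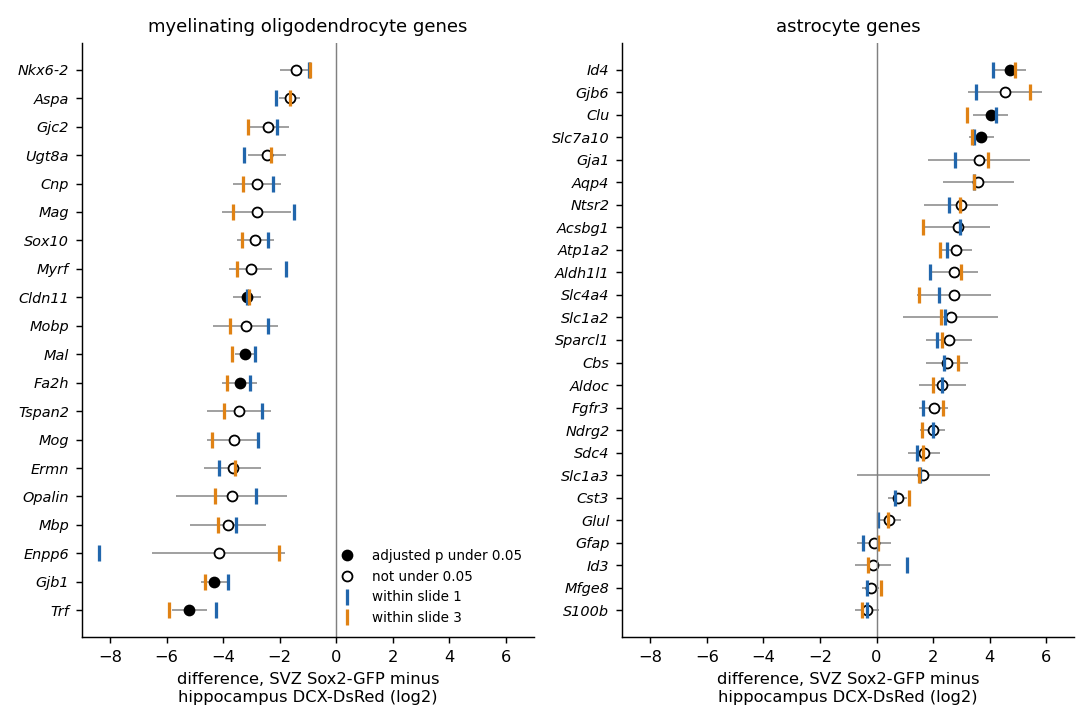
Difference between SVZ Sox2-GFP and hippocampus DCX-DsRed cells (log2, horizontal axis) for 20 of the 21 measured myelinating oligodendrocyte genes and for the 25 astrocyte genes. Circles are differences of group means with n = 3 arrays each, filled where the limma adjusted p was under 0.05, grey bars are SEs, and blue and orange ticks are the differences within slides 1 and 3. All 20 myelin genes shown lie left of 0, and 21 of 25 astrocyte genes lie right of 0.

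The genes of the reporters themselves did not separate the groups. Sox2 read 0.94, 2.09 and 2.30 on the SVZ arrays and 1.33, 1.74 and 1.72 on the DCX-DsRed arrays. The ranges overlapped, with 1.78 ± 0.73 (SD, n = 3) in SVZ cells and 1.60 ± 0.23 (SD, n = 3) in DCX-DsRed cells, and the difference of 0.18 (SE 0.59) had a limma adjusted p of 0.941. It was -0.59 within slide 1 and 0.48 within slide 3. Dcx, which encodes a microtubule protein of migrating neuroblasts, read 2.60, 3.07 and -2.34 on the SVZ arrays and -1.26, -0.76 and 1.30 on the DCX-DsRed arrays. SVZ replicates A and B were above all DCX-DsRed arrays and SVZ replicate C was below them. The difference was 1.35 (SE 1.46, limma adjusted p = 0.775), 3.60 within slide 1 and -0.94 within slide 3. Without SVZ replicate C it was 3.07 (limma adjusted p = 0.276), without SVZ replicate A 0.60, without SVZ replicate B 0.36 and without DCX-DsRed replicate C 2.11. The mRNA of the reporter genes does not check the sort, and the groups are named here by their reporter and region alone.

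None of 23 measured stem and progenitor genes was called in limma (5 higher and 2 lower at an unadjusted p under 0.05, against 13.7% of all genes in either direction). Of the differences, 17 were positive, and the median was 0.38. Every SVZ array lay above every DCX-DsRed array in 8 genes, against 10.6% of all genes, and below in 2, against 10.4%. With slide as a fixed block 2 genes were called higher and 1 lower, and without hippocampus Sox2-GFP replicate C 4 higher. The tetraspanin Cd9 had the smallest p of the list, at -0.98, -1.20 and -0.46 against 0.36, 0.67 and 1.17 (difference -1.61, SE 0.36, limma adjusted p = 0.082). Hes5, a Notch target of stem cells, read 4.66, 4.72 and 5.18 against 4.73, 4.32 and 4.64, and Nes, which encodes the intermediate filament nestin, read -2.35, -2.67 and -2.90 against -2.02, -2.05 and -2.78. In both genes the groups overlapped. Prom1, the surface protein CD133, read -0.41, -2.09 and -0.69 on the SVZ arrays and -3.37, -5.03 and -6.39 on the DCX-DsRed arrays, which did not overlap, with a difference of 3.87 (SE 1.20, limma adjusted p = 0.189). Vim, the intermediate filament vimentin, read -0.98, -1.13 and 0.58 against -3.23, -3.94 and -4.45 and likewise did not overlap (difference 3.37, SE 0.97, limma adjusted p = 0.159).

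Newborn neuron genes had a median difference on the SVZ side of 0. Of 22 measured genes, 14 had positive differences, and the median was 0.84, 1.66 within slide 1 and 0.17 within slide 3. The list averaged 1.21, 1.30 and -0.92 on the SVZ arrays and -0.77, -0.18 and 0.22 on the DCX-DsRed arrays. Dclk1, a kinase related to Dcx that astrocytes and stem cells also carry, was the 1 gene called, higher where 0.542% of all genes were. It read 2.19, 2.92 and 3.19 against -0.32, -0.72 and 0.35, with no overlap, and differed by 2.999 (SE 0.44, limma adjusted p = 0.0192), a call lost without SVZ replicate B or C or DCX-DsRed replicate A or B (limma adjusted p up to 0.088). Stmn2, a microtubule regulator of growing axons, read 1.56, 1.50 and -1.67 against -0.61, -0.43 and -1.101. Elavl4, a neuronal RNA-binding protein, read 1.86, 3.05 and -0.59 against 2.42, 2.51 and 3.09. In both genes SVZ replicates A and B stood well above replicate C, which lay below every DCX-DsRed array.

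Genes of the olfactory interneuron lineage were spread widely among the SVZ arrays. Of 20 genes listed, 14 passed the filter, none was called in limma (2 higher and 0 lower at an unadjusted p under 0.05) and 12 differences were positive (median 0.71). Their mean level was 0.82, 1.30 and -1.48 on the SVZ arrays and -1.41, -1.29 and -0.39 on the DCX-DsRed arrays. Dlx6os1, the noncoding transcript at the Dlx5 and Dlx6 locus of GABAergic precursors, read 2.65, 3.15 and -4.43 on the SVZ arrays and -7.31, -5.02 and -0.23 on the DCX-DsRed arrays. Replicates A and B of the SVZ group were high, replicate C lay near DCX-DsRed replicate B, and DCX-DsRed replicate C was the highest of its group. Gad1, which makes the transmitter GABA, read 0.84, 1.37 and -5.62 against -5.53, -4.32 and -1.14, with the same pattern. Meis2, a homeobox factor of olfactory bulb neurons, read 3.16, 3.80 and 1.12 against -0.74, -1.51 and 0.90. Its groups did not overlap, with SVZ replicate C just above DCX-DsRed replicate C.

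Over the 14 genes, SVZ replicate C lay a median 2.12 below the mean of A and B, and over the 22 newborn neuron genes 2.00 below. Over all genes this median was -0.11. DCX-DsRed replicate C lay a median 0.72 above the mean of its replicates A and B in the first list and 0.65 above in the second, where the median over all genes was -0.32. Without SVZ replicate C the median difference of the interneuron list was 1.61 and that of the newborn neuron list 1.70. Over the 21 myelin genes SVZ replicate C lay a median 1.20 below the mean of A and B, and over the 25 astrocyte genes 0.92 above it. The part that the cell content of this array has in these differences was not tested.

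Of the members that could not be tested, Dlx6 and Sp9 have no probe here, and Dlx2 and Sp8 were well above background on 2 SVZ arrays and on no DCX-DsRed array. Isl1 stayed under the filter as well. Dlx1, left out because its spot carried an outlier flag on at least 1 array, read 1.31, 2.09 and -1.16 on the SVZ arrays and -1.53, -1.43 and -0.52 on the DCX-DsRed arrays with such spots kept, the same split of SVZ replicate C from A and B.

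**Figure D3:**
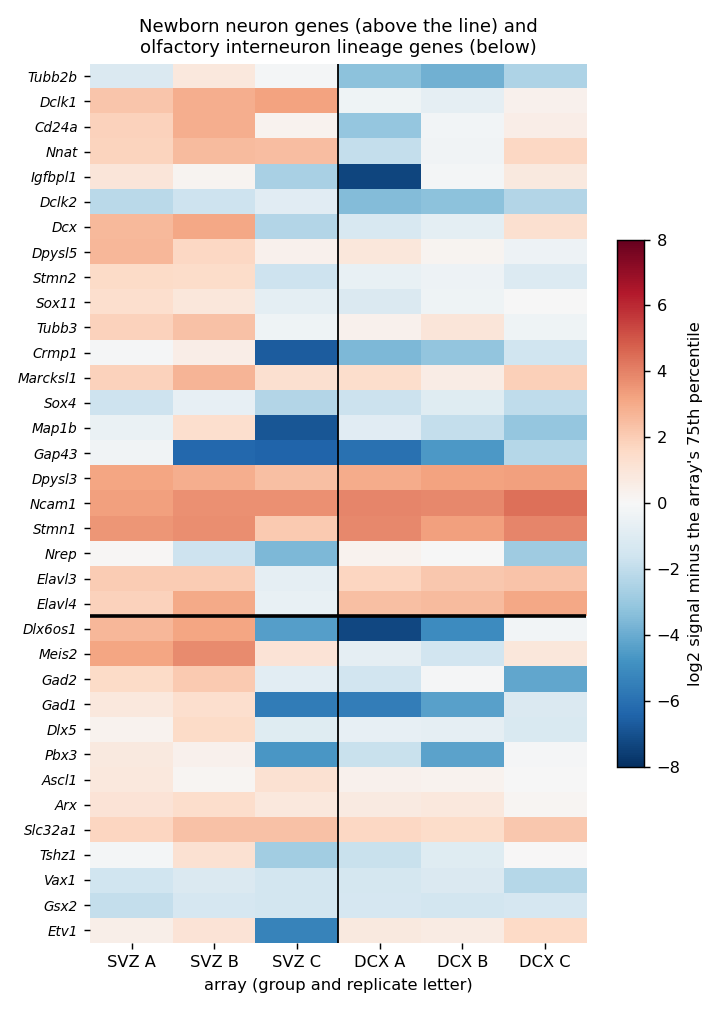
Level of the 22 newborn neuron genes (above the line) and of 13 of the 14 olfactory interneuron lineage genes (below) on the 6 arrays, as log2 signal minus the array's 75th percentile, with rows ordered by the difference of group means. Colours run from blue (low) to red (high). In Dcx, Dlx6os1, Meis2, Gad1 and Gad2 SVZ replicates A and B are redder than SVZ replicate C.

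Genes of the hippocampal granule lineage gave no call. Of 20 listed, 18 were measured, none passed limma's threshold (1 higher and 2 lower at an unadjusted p under 0.05), 9 differences were positive and 9 negative, and the median was -0.085. Calb2, the calcium-binding protein calretinin that young granule cells pass through, read -3.55, -4.14 and -3.89 on the SVZ arrays and -1.28, -1.39 and -0.056 on the DCX-DsRed arrays. The groups did not overlap, and the difference was -2.95 (SE 0.62, limma adjusted p = 0.0659), and with slide as a fixed block it passed the threshold (limma adjusted p = 0.03). Prox1, a homeobox factor that granule cells keep and that oligodendrocytes also carry, read 0.56, 0.99 and 0.53 against 2.94, 2.19 and 1.99 (difference -1.68, SE 0.49, limma adjusted p = 0.162). Neurod1 and Neurod6 stayed under the filter.

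Ependymal cells line the ventricle beside the SVZ and carry motile cilia. Of 27 listed genes of these cells, 24 were measured, and 1 was called higher, where 0.542% of all genes were. In 19 the difference was positive, and in 8 every SVZ array lay above every DCX-DsRed array, against 10.6% of all genes (median 0.69). The called gene was Enkur, a protein of the ciliary axoneme. It read 0.68, -2.30 and -2.18 on the SVZ arrays and -7.06, -7.11 and -7.28 on the DCX-DsRed arrays, where no array had it well above background. It was therefore at least 19.8-fold higher (limma adjusted p = 0.0378). The "at least" fold sets the brighter mean against the dimmest signal that counts as above background, or the dim probe's own where that is higher. The call was lost without any 1 of the 6 arrays (limma adjusted p 0.0657 to 0.125).

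The other listed cilium genes were not called. Foxj1, the master regulator of motile cilia, overlapped at -3.46, -2.32 and -1.81 against -2.73, -2.61 and -5.11 (difference 0.95, SE 0.72, limma adjusted p = 0.647). Tmem212, a transcript of ependymal cells, read -1.05, -2.10 and -2.17 against -7.21, -7.63 and -7.87, with no DCX-DsRed array well above background, at least 13.9-fold higher with a limma adjusted p of 0.205. Ccdc39, an assembly factor of the axoneme, did not overlap at -2.01, -1.34 and -1.38 against -3.93, -3.51 and -3.48 (difference 2.07, SE 0.41, limma adjusted p = 0.0572). Ccdc153 has no probe here and Meig1 stayed under the filter. Rsph4a, a radial spoke protein left out for an outlier flag, read -0.35, -0.99 and -0.48 against -4.33, -7.77 and -6.66 with such spots kept.

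Ciliary genes are commonly driven by RFX factors through the X-box, whose arms contain GTTGCC. The 250 bases before the start of Enkur are shown because Enkur was the called member of the list. Ppil6 was picked from the 12 largest differences above 0, and only a short stretch around its motif is shown. The motif was not counted over those 12 genes. Both come from RefSeq on GRCm38.p6, 5′ to 3′ on the gene's strand, with GTTGCC in capitals. Enkur lies on the minus strand of chromosome 2 (chr2:21205366-21205615) and Ppil6 on the plus strand of chromosome 10 (chr10:41490409-41490438).
Enkur: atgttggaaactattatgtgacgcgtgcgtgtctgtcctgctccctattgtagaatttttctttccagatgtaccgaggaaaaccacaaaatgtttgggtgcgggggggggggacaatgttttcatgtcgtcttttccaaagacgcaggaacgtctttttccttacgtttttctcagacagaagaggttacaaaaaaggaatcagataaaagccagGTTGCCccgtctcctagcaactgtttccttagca
Ppil6: ttcggggaggagccacgcgGTTGCCctggc
The motif began 34 bases before the start in Enkur and 11 bases before the annotated start in Ppil6. Read on both strands, GTTGCC was in 10.4% of the 32851 windows of 250 bases in the table, which belong to 27025 genes. It was in a window of 10 of the 21 listed cilium genes that have one. The first share counts windows and the second genes, some with several windows, so they are not alike. The share of all genes was not counted. A match is a description of the letters and not of a bound site.

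The choroid plexus lies in the ventricle and secretes cerebrospinal fluid. Of 18 measured genes of its list 1 was called lower, where 1.00% of all genes were, and the median difference was -0.19. The list averaged -2.62, -3.38 and -3.08 on the SVZ arrays and -2.99, -2.87 and -3.35 on the DCX-DsRed arrays, and 1.88, 1.08 and 2.98 on the hippocampus Sox2-GFP arrays. Enpp2, the enzyme autotaxin that oligodendrocytes also make, was called lower at 1.73, 2.35 and 1.43 against 4.64, 4.65 and 5.10 (difference -2.96, SE 0.40, limma adjusted p = 0.0153). The call was lost without SVZ replicate C or any 1 DCX-DsRed array (limma adjusted p up to 0.067).

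Markers of other cell types that such dissections can carry over gave few calls. Of all genes, 0.542% were called higher and 1.00% lower, and 13.7% had an unadjusted limma p under 0.05. No gene was called by limma in the lists of 15 microglia, 13 meningeal fibroblast, 3 red blood cell and 13 striatal projection neuron genes, whose medians were -0.50, -0.013, 0.82 and 0.25. At an unadjusted p under 0.05 these lists held 0, 0, 0 and 0 higher and 1, 0, 0 and 1 lower genes. The members with the smallest p were the complement gene C1qc (difference -2.43, limma adjusted p = 0.292), the collagen gene Col1a1 (0.78, limma adjusted p = 0.42), the heme synthesis gene Alas2 (0.97, limma adjusted p = 0.395) and the phosphodiesterase gene Pde10a (-2.15, limma adjusted p = 0.297). Among 18 endothelial and mural genes (median 0.52) Tek, the angiopoietin receptor, was called higher. It read -3.29, -3.14 and -1.28 against -6.12, -6.15 and -7.95, with no DCX-DsRed array well above background, and was at least 8.00-fold higher (limma adjusted p = 0.0283). Only 1 of its 2 probes had this sign, and the call was lost with slide as a fixed block (limma adjusted p = 0.0518), with only the 6 arrays, and without any array but SVZ replicate A (limma adjusted p up to 0.0844). Among 16 mature neuron and synapse genes (median 0.043) Dlg4, the scaffold PSD-95 of excitatory synapses, was called higher at 1.32, 1.45 and 0.56 against -1.42, -1.46 and -0.53 (difference 2.25, SE 0.40, limma adjusted p = 0.0378), and lost its call with slide as a fixed block (limma adjusted p = 0.0519), with only the 6 arrays, and without any array but DCX-DsRed replicate C (limma adjusted p up to 0.143).

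Among the 12 largest that were higher in SVZ cells, Enkur is described above and the others are given here with their roles where these are well known. Cml3, of the camello-like acetyltransferase family, read 2.36, 1.38 and 2.50 on the SVZ arrays and -7.33, -4.70 and -5.81 on the DCX-DsRed arrays. It was called (limma adjusted p = 0.00323), and the measured difference was 8.03 (SE 0.68). Its probe was well above background on 1 DCX-DsRed array, so that this size rests in part on signal under that level, and the gene has close copies whose transcripts the probe may share.

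Col4a5, a chain of the type IV collagen of basement membranes, read -1.08, -0.19 and -1.24 against -7.39, -7.14 and -6.79. No DCX-DsRed array had it well above background, and it was at least 26.6-fold higher (limma adjusted p = 0.000845). Spink10, of the Kazal family of protease inhibitors, read -1.82, -2.27 and -2.54 against -7.36, -7.76 and -8.02 and was at least 10.3-fold higher (limma adjusted p = 0.00204). In both genes every SVZ array was well above background. Spink10 was so on no hippocampal array of either reporter. It passed the filter on dim probes only through the SVZ group, where it is high, so its p is description. Pi4k2a, a phosphatidylinositol kinase of endosomes, was at least 31.3-fold higher (limma adjusted p = 0.0318) and Tmem164 at least 26.8-fold (limma adjusted p = 0.0189), both again with no DCX-DsRed array well above background.

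Ppil6, of the cyclophilin-like proteins, read 2.75, 2.16 and 2.40 on the SVZ arrays and -3.38, -2.24 and -2.76 on the DCX-DsRed arrays. The groups lay far apart on both slides (5.56 and 5.05), and the difference was 5.23 (SE 0.52, limma adjusted p = 0.00561). Crym, a cytosolic thyroid hormone binding protein, read -0.52, 0.52 and 1.70 against -4.95, -5.63 and -5.24 (difference 5.84, SE 0.78, limma adjusted p = 0.0152). Pygm, the muscle form of glycogen phosphorylase that astrocytes also carry, read 1.47, 1.89 and 1.92 against -1.51, -3.82 and -4.87 (difference 5.16, SE 0.88, limma adjusted p = 0.0346). No arrays of these 3 genes overlapped. Emp2, an epithelial membrane protein that was well above background on 1 DCX-DsRed array, differed by 6.74 (limma adjusted p = 0.0401, or 0.0584 with slide as a fixed block), Tom1l1, an adaptor of endosomal sorting, by 5.74 (limma adjusted p = 0.0147) and Cyp4f15, a cytochrome P450 of fatty acid oxidation, by 5.48 (limma adjusted p = 0.0142).

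Among the 12 largest differences below 0, Trf is described above. Pstpip2, an adaptor of membrane and actin, read -2.69, -8.09 and -8.08 on the SVZ arrays and 1.88, 2.35 and 1.99 on the DCX-DsRed arrays. SVZ replicate A was the 1 SVZ array well above background, and the measured difference was -8.36 (SE 1.49, limma adjusted p = 0.038). Abcg1, a cholesterol exporter, read -6.56, -6.68 and -2.16 against 1.20, 1.19 and 1.49 and was well above background on SVZ replicate C but not on A and B (measured difference -6.43, SE 1.14, limma adjusted p = 0.0378). With slide as a fixed block it missed the threshold (limma adjusted p = 0.0514). Acsl1, which activates long-chain fatty acids, read -3.05, -5.03 and -1.86 against 2.07, 2.29 and 2.84 (difference -5.71, SE 0.76, limma adjusted p = 0.0147). In all 3 genes every SVZ array lay below every DCX-DsRed array.

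Klhl4, of the kelch-like family, read -8.71, -8.15 and -8.18 against -1.42, -1.82 and -2.001, with no SVZ array well above background, and was at least 21.3-fold lower (limma adjusted p = 0.000845). Spock3, a proteoglycan of the testican family, was at least 13.3-fold lower (limma adjusted p = 0.00287) and Zfp708, a zinc finger gene, at least 12.4-fold (limma adjusted p = 0.0142). Rnf7, a RING subunit of cullin ubiquitin ligases, read -5.24, -4.10 and -3.98 against 1.13, 0.33 and 1.01, a difference of -5.26 (SE 0.45, limma adjusted p = 0.00323). Hid1 differed by -5.58 (limma adjusted p = 0.0176). Cd59b, an inhibitor of the complement membrane attack complex, read -6.03, -6.38 and -6.39 against -0.14, -0.12 and -2.10, with 1 SVZ array well above background (measured difference -5.48, SE 0.75, limma adjusted p = 0.0164). Speer4b (-5.28, limma adjusted p = 0.0356) and Speer8-ps1 (-5.59, limma adjusted p = 0.0283, or 0.0559 with slide as a fixed block) belong to a family of near-identical copies, and Cd59b has a close paralog, so their values may be those of relatives.

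**Figure D4:**
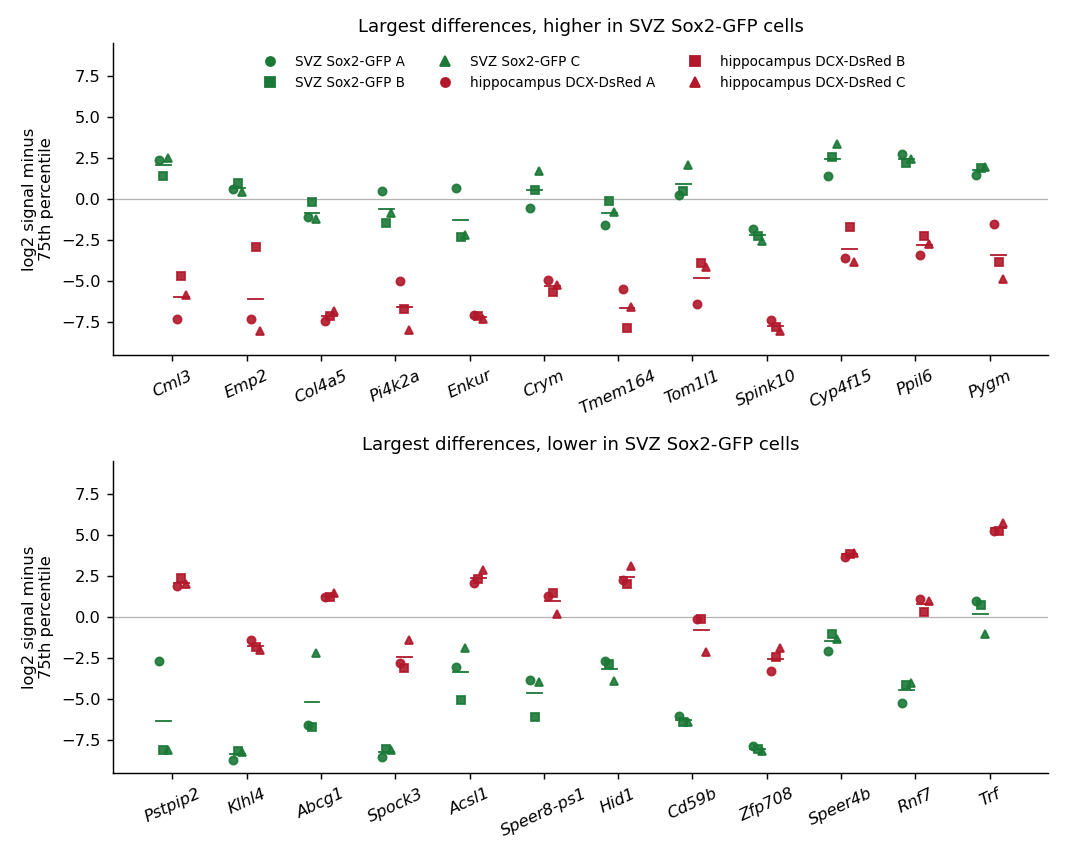
Level on each of the 6 arrays (log2 signal minus the array's 75th percentile) of the 12 named genes with the largest differences higher in SVZ Sox2-GFP cells (top) and lower (bottom). Green marks SVZ Sox2-GFP, red hippocampus DCX-DsRed, symbols the replicates and bars the group means, and in each gene the groups do not overlap. Points of the dimmer group that lie low are in several genes, Pstpip2, Abcg1 and Emp2 among them, not well above background.

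Of the 36 called genes named by the rule, 10 stayed under the threshold without each of the 6 arrays in turn, namely Cml3, Col4a5, Tom1l1, Spink10, Ppil6, Klhl4, Spock3, Rnf7, Id4 and Mal. Spink10, as said above, passed the filter only through the SVZ arrays. Pi4k2a, Speer8-ps1 and Speer4b, with Enkur and Fa2h, lost the call without any 1 of them, with limma adjusted p up to 0.108, 0.113 and 0.118. Others kept it only without 1 array: Emp2 and Pygm without DCX-DsRed replicate B and A in that order, Tmem164 and Hid1 without SVZ replicate A, Pstpip2 without SVZ replicate A, and Abcg1 without SVZ replicate C. Their highest limma adjusted p was 0.15, 0.122, 0.0749, 0.0786, 0.129 and 0.128. Cyp4f15 missed the threshold without DCX-DsRed replicate A (0.067), Acsl1 without any 1 DCX-DsRed array (0.0626), Crym and Zfp708 without SVZ replicate C or any 1 DCX-DsRed array (0.0636 and 0.0589), and Cd59b without SVZ replicate B or C or DCX-DsRed replicate A or B (0.0796).

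Some called differences moved in measured size by more than 1.5 times on the linear scale without 1 array. For Cml3, Emp2, Pstpip2, Abcg1 and Cd59b the dimmer group was well above background on 1 array, and for Tom1l1 and Speer8-ps1 on 2, so these sizes rest in part on signal under that level. The size of Crym, which stayed within 1.5 times, also rests in part on such signal, with 2 arrays of its dimmer group well above background. Pi4k2a, Tmem164, Tek and Enkur have bounds only and are left out here. Without DCX-DsRed replicate A, Cml3 differed by 7.33, Emp2 by 6.14, Tom1l1 by 4.95 and Pygm by 6.11. Without DCX-DsRed replicate B, Cml3 differed by 8.65, Emp2 by 8.32, Cyp4f15 by 6.15 and Clu by 3.43. Without DCX-DsRed replicate C, Emp2 differed by 5.76, Pygm by 4.43 and Cd59b by -6.13. All of these kept their direction.

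Among the SVZ arrays, Pstpip2 differed by -10.16 without replicate A, -7.46 without B and -7.47 without C. Abcg1 differed by -5.71, -5.65 and -7.91 in the same order. Acsl1 differed by -4.85 without replicate B and -6.44 without C, and Speer8-ps1 by -4.85 without B. These too kept their direction.

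Signalling pathways of the niche showed few calls. Of all genes, 13.7% had an unadjusted limma p under 0.05 in either direction. In the Notch pathway none of 20 measured genes was called in limma (3 higher and 1 lower at an unadjusted p under 0.05, median 0.44). In 5 genes every SVZ array lay above every DCX-DsRed array, against 10.6% of all genes, and in 1 below, against 10.4%. Lfng, a glycosyltransferase that modifies Notch receptors, had the smallest p at 1.04, 2.71 and 2.26 on the SVZ arrays and -2.39, -3.66 and -2.80 on the DCX-DsRed arrays, with no overlap (difference 4.95, SE 1.25, limma adjusted p = 0.111, or 0.02 with slide as a fixed block). Notch1, the receptor, read -1.11, -1.22 and 0.09 against -3.26, -3.11 and -2.66 (limma adjusted p = 0.282), and the ligand Dll1 read -3.23, -1.89 and -1.60 against -0.90, 0.077 and -0.077 (limma adjusted p = 0.324). The groups did not overlap in either gene, and the signs were opposite.

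In the hedgehog pathway 1 of 13 genes was called lower, where 1.00% of all genes were (median 0.43). At an unadjusted limma p under 0.05, 3 genes were higher and 1 lower. In 4 genes every SVZ array lay above every DCX-DsRed array, against 10.6% of all genes, and in 1 below, against 10.4%. Hhip, which binds hedgehog ligands and is itself a target of the pathway, was lower at -6.10, -5.17 and -5.03 against -1.29, -2.54 and -1.21 (difference -3.75, SE 0.53, limma adjusted p = 0.0176), and missed the threshold without SVZ replicate C or DCX-DsRed replicate A or C (limma adjusted p up to 0.0851). Gli3, a transcription factor of the pathway, read 0.21, 0.17 and -0.26 against -5.22, -3.79 and -5.23 without overlap (difference 4.79, SE 1.26, limma adjusted p = 0.127). Gli1, the usual readout of the pathway, overlapped at -0.17, -0.43 and 0.34 against 0.085, 0.50 and -1.44.

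In the Wnt pathway 1 of 23 genes was called lower, where 1.00% of all genes were. The median was 0.24, with -0.25 within slide 1 and 0.94 within slide 3. At an unadjusted limma p under 0.05, 5 genes were higher and 2 lower. In 8 genes every SVZ array lay above every DCX-DsRed array, against 10.6% of all genes, and in 2 below, against 10.4%. The ligand Wnt3 was lower at -3.08, -4.11 and -3.23 against 0.15, 0.93 and 0.60 (difference -4.03, SE 0.56, limma adjusted p = 0.0172), a call lost without any array but SVZ replicate A (limma adjusted p up to 0.0694). The pathway's feedback gene Axin2 was well above background on 1 array of each group. In the BMP and TGF beta pathway Id4 was the 1 call among 24 genes, higher where 0.542% of all genes were (median 0.19). At an unadjusted limma p under 0.05, 4 genes were higher and 2 lower. The groups did not overlap in 4 genes with SVZ above and in 2 with SVZ below, with the same shares of all genes beside them. Id2, another Id factor, read -0.029, 2.02 and 2.08 against -0.86, -1.05 and -1.25 (difference 2.41, SE 0.60, limma adjusted p = 0.109), and Bmp2, a ligand, read -1.69, -1.62 and -2.64 against -0.30, -0.094 and -0.87 (difference -1.56, SE 0.38, limma adjusted p = 0.105). Nog, left out for an outlier flag, read 1.17, 0.43 and 0.52 against 1.52, 1.15 and 0.58 with such spots kept.

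The series title names IGF2 in hippocampal neurogenesis. Igf2, the insulin-like growth factor, was near the lower end of the signal in both groups, at -5.35, -5.91 and -5.02 on the SVZ arrays and -7.01, -6.63 and -6.57 on the DCX-DsRed arrays. It was well above background on 2 SVZ arrays and on no DCX-DsRed array, and the difference of 1.31 (SE 0.47) had a limma adjusted p of 0.256. On the hippocampus Sox2-GFP arrays it read 4.64, 4.39 and 5.96. Of 16 measured genes of the IGF system none was called in limma (median 0.28). At an unadjusted p under 0.05, 3 were higher and 0 lower, against 13.7% of all genes in either direction. In 6 genes every SVZ array lay above every DCX-DsRed array, against 10.6% of all genes, and in 0 below, against 10.4%. Igfbp5, an IGF binding protein, had the smallest p at -1.31, 1.09 and -1.23 against -3.44, -4.19 and -3.29 (difference 3.16, SE 0.70, limma adjusted p = 0.0794), and without SVZ replicate B its difference was 2.37. The receptor Igf1r read 2.37, 1.56 and 1.70 against -0.19, -0.60 and 1.45, with all SVZ arrays above all DCX-DsRed arrays (difference 1.66, SE 0.54, limma adjusted p = 0.21). Igf1 overlapped at 0.35, -0.18 and -0.13 against 0.43, 0.32 and 0.013.

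Genes of cell division showed no call by limma in either of their lists. At an unadjusted p under 0.05, 1 replication and 5 mitosis genes were higher and 0 and 0 lower, against 13.7% of all genes in either direction. Every SVZ array lay above every DCX-DsRed array in 2 replication and 6 mitosis genes, against 10.6% of all genes. Every SVZ array lay below in 1 and 0, against 10.4%. Among 22 DNA replication genes the median was 0.021 and the smallest p was that of Rrm2, a subunit of ribonucleotide reductase (1.22, SE 0.52, limma adjusted p = 0.357). Among 22 mitosis genes the median was 0.47, and the list averaged -0.19, -0.48 and -1.02 on the SVZ arrays and -1.12, -1.28 and -1.67 on the DCX-DsRed arrays. Top2a, the topoisomerase of dividing cells, read -0.23, 0.21 and -1.51 against -2.95, -2.45 and -4.14, with no overlap (difference 2.67, SE 0.63, limma adjusted p = 0.0954). Mki67, which encodes the proliferation antigen Ki-67, overlapped at 2.62, 1.64 and 1.38 against 1.78, 1.75 and 1.32.

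Among 24 genes of migration and guidance none was called in limma (median -0.16). At an unadjusted p under 0.05, 1 was higher and 3 lower, against 13.7% of all genes in either direction. Efnb3, an ephrin ligand that oligodendrocytes also carry, had the smallest p at 2.18, 0.50 and -0.055 against 4.19, 3.99 and 4.65 (difference -3.40, SE 0.77, limma adjusted p = 0.083). St8sia2, which makes the polysialic acid of migrating neuroblasts, read -1.32, 0.87 and -1.84 against -2.24, -1.70 and -2.15 (difference 1.26, SE 0.80, limma adjusted p = 0.567). No gene was called by limma among 16 glycolysis genes (5 higher and 0 lower at an unadjusted p under 0.05, median 0.11) or among 14 immediate early and stress genes (1 and 1, median -0.35), where the smallest p belonged to the phosphofructokinase gene Pfkp (1.62, limma adjusted p = 0.0983) and to Ccn1, a secreted matrix protein (2.35, limma adjusted p = 0.0632).

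The sex-linked genes split the DCX-DsRed arrays. Xist, the RNA of the inactive X chromosome, read 2.27, 3.78 and 2.93 on the SVZ arrays and -3.43, -3.47 and 2.18 on the DCX-DsRed arrays. It was high on all SVZ arrays and on DCX-DsRed replicate C and low on DCX-DsRed replicates A and B. The Y-linked gene Uty ran the other way, at -5.26, -8.07 and -6.64 against -1.63, -1.76 and -6.77. DCX-DsRed replicates A and B thus stand apart from the 4 other arrays in these genes, and they are also the DCX-DsRed arrays of slide 1. On slide 3, which holds 1 DCX-DsRed array, all 3 arrays were high in Xist, and there the myelin and astrocyte medians above were -3.57 and 2.24. Without DCX-DsRed replicate C the difference of Xist was 6.44 (limma adjusted p = 0.0416). The part of sex in the other differences was not tested.

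**Figure D5:**
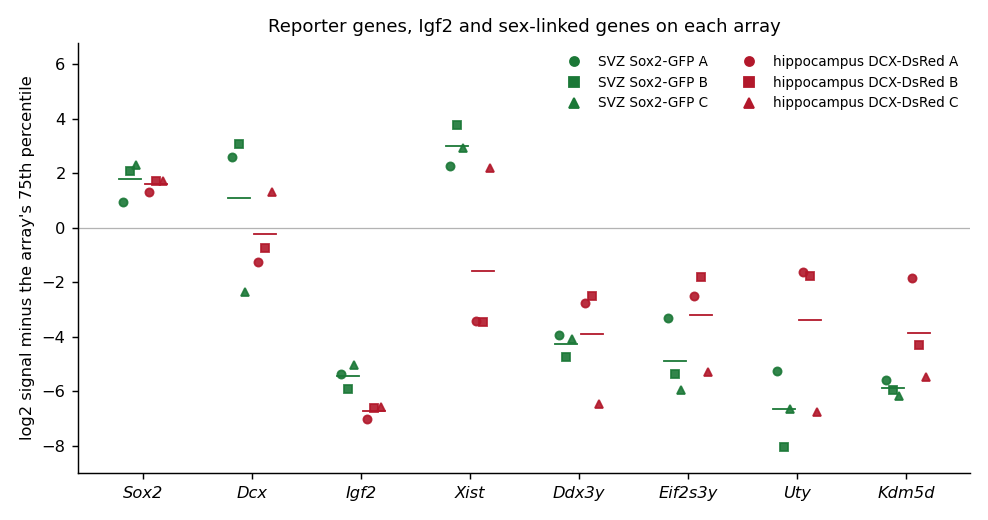
Level on each of the 6 arrays (log2 signal minus the array's 75th percentile) of the reporter genes Sox2 and Dcx, of Igf2, and of Xist with the Y-linked genes Ddx3y, Eif2s3y, Uty and Kdm5d. Green marks SVZ Sox2-GFP, red hippocampus DCX-DsRed, symbols the replicates and bars the group means. Sox2 and Dcx overlap between groups, and DCX-DsRed replicates A and B lie low in Xist and high in Uty.

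With the same SVZ arrays set against Sox2-GFP cells of the hippocampus, 2 of the named genes were called higher in SVZ cells, where 0.0442% of all genes were, and 4 lower, where 0.354% were. Most named genes were picked by their SVZ minus DCX-DsRed values on these SVZ arrays. The shares of all genes are therefore no measure of an excess among them. The higher genes were Crym, at -6.06, -3.44 and -5.76 on the hippocampus Sox2-GFP arrays, and Spink10, at -7.31, -7.60 and -8.40. The lower genes were Igf2, Cd59b, Enpp2 and Rnf7. Enpp2, for example, read 5.90, 5.72 and 6.75 on the hippocampus Sox2-GFP arrays, above every SVZ and every DCX-DsRed array.

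Differences between the slides were tested for each gene as the change in the SVZ minus DCX-DsRed difference from slide 1 to slide 3. No gene passed a limma adjusted p of 0.05, and 2418 (9.71%) had an unadjusted p under 0.05. This test has 3 residual degrees of freedom. Among named genes well above background on all 6 arrays, the differences within slides 1 and 3 were -5.96 and -5.05 in Rnf7, -4.80 and -6.46 in Hid1, -5.23 and -6.28 in Acsl1, and 4.14 and 6.78 in Pygm. With slide as a fixed block, 352 genes were called higher and 442 lower over all genes, and some lists held calls beside those above. They were 3 ependymal and 2 newborn neuron genes called higher in place of 1 each, 1 gene called higher in the mitosis, glycolysis, hedgehog and Wnt lists each, where none was, and 1 called lower in the migration list.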

How the data were processed

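Gene expression was measured on 1-colour Agilent arrays. Each deposited file is the scanner output of 1 array, with the intensity of each spot from Feature Extraction 9.5.1.1 per the file headers: the authors' processed signal, background-subtracted and not normalized between arrays, beside raw intensity, background intensity and flags. Limma is the 1 tool that the submitters' processing notes give, without its use. Amplification of RNA from 1000 cells can distort levels in ways these values do not show. The file of DCX-DsRed replicate A had been resaved by a spreadsheet, so gene names came from another file.

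Control and outlier-flagged spots were left out, spots of a probe averaged on the log2 scale, and 464 of 41174 probes without an unflagged spot on every array dropped. Each array's 75th percentile was subtracted. Probes had to be well above background on 3 or more arrays and were named through a RefSeq table (GRCm38.p6), and the brightest stood for its gene. A linear model with group means over all 9 arrays (6 residual degrees of freedom) was fitted with limma 3.58.1 (R 4.3.3), using lmFit and then eBayes, and checked on simulated data. Precision is limited by 3 arrays per group.

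Named are Sox2, Dcx and Igf2, the 12 largest called differences in each direction (groups not overlapping, the higher group well above background on all its arrays, no clone name), and per list up to 4 called members or else the one with the smallest p. Other members are given to describe a list and were picked after their values were seen. Of the listed genes, 2 are counted in their lists and are not reported singly here. The members, the gene lists and this rule were chosen with earlier results of these data known. Alternatives were other background correction, normalization, filters, probe summaries, outlier handling, slide blocks, single slides, a replicate block and each array left out.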

Additional observations from a re-analysis of the deposited data

Results flagged for a closer look

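In the fit over all 9 arrays, 6 of the named genes differed between Sox2-GFP cells of the SVZ and of the hippocampus (limma adjusted p under 0.05). The labels give no DCX-DsRed cells of the SVZ, so regions are compared for Sox2-GFP cells alone. Of all genes tested, 0.0442% were called higher and 0.354% lower in SVZ than in hippocampus Sox2-GFP cells. Values are given with no explanation. The same SVZ arrays enter both differences and served to pick most named genes, so these shares measure no excess among them.

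Crym was 5.65 higher in SVZ than in hippocampus Sox2-GFP cells (SE 0.78, limma adjusted p = 0.0296), where the hippocampus Sox2-GFP arrays read -6.06, -3.44 and -5.76. Spink10 was 5.56 higher (limma adjusted p = 0.00237), and its hippocampus Sox2-GFP arrays read -7.31, -7.60 and -8.40. Spink10 was not well above background on any of the 6 hippocampal arrays, and Crym was so on 2 arrays of each hippocampal group, so that both sizes are measured differences that rest in part on signal under that level. Spink10 thus passed the filter only through the SVZ arrays, and its p is description here too.

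Cd59b differed by -8.04 (limma adjusted p = 0.00842) with 0.84, 1.19 and 3.29 on the hippocampus Sox2-GFP arrays. Rnf7 differed by -3.897 (limma adjusted p = 0.0145) with -0.75, -0.81 and -0.07 on those arrays. Enpp2 differed by -4.29 (limma adjusted p = 0.00842) with 5.90, 5.72 and 6.75. These 3 genes were lower on the SVZ arrays than on every hippocampal array of either reporter.

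Igf2, last, differed by -10.43 (limma adjusted p = 0.000306), with 4.64, 4.39 and 5.96 on the hippocampus Sox2-GFP arrays against -5.35, -5.91 and -5.02 on the SVZ arrays and -7.01, -6.63 and -6.57 on the DCX-DsRed arrays.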

How the results depend on the processing

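The counts of called genes moved most. Higher and lower in SVZ cells, they were 135 and 250 as reported, 352 and 442 with slide as a fixed block, 332 and 502 with slide as a random block, and 1 and 1 within slide 1. With only the 6 arrays compared, 208 were called higher, and within slide 3, 104 lower. Leaving out 1 array at a time, hippocampus Sox2-GFP replicate C included, gave 20 to 390 higher and 29 to 457 lower. The other settings, apart from the replicate block below, stayed within 1.5 times of the reported counts.

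The replicate letters did not pair the samples: deviations of same-lettered SVZ and DCX-DsRed arrays from their group means correlated at 0.115, -0.044 and 0.054 for A, B and C. With the replicate block 66 genes were called higher and 125 lower, and 177 of the 385 calls passed.

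Sox2 turned to -0.057 with slide as a fixed block, to -0.59 within slide 1 and to -0.078 without SVZ replicate C (-0.078 to 0.60 over the 6 arrays left out). Dcx turned to -0.94 within slide 3, and Igf2 to -0.11 as the mean of its probes. None of the 36 called genes that are named changed sign under any setting run. Over the other named genes and settings, a call was lost 203 times, gained 32 times and unchanged 786 times. For dim probes the bound on a fold, and for all genes 3 arrays per group, limit what can be resolved.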

Other observations

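Outside the lists and the naming rule, called genes were read through after their values were seen, so what follows is description. Further genes known from oligodendrocytes were lower in SVZ cells. Tmem63a, an ion channel of these cells, read -2.51, -1.69 and -1.48 on the SVZ arrays and 3.02, 2.85 and 3.11 on the DCX-DsRed arrays (difference -4.89, SE 0.36, limma adjusted p = 0.00204). Hapln2, a link protein at the node of Ranvier, read -0.85, -0.95 and -0.91 against 2.80, 2.65 and 2.81 (limma adjusted p = 0.00204). Gpr62, a receptor of myelinating cells, read -0.97, -1.39 and -1.59 against 2.003, 2.15 and 2.73 (limma adjusted p = 0.00512). Fth1, the heavy chain of ferritin, which stores iron, read -1.01, -0.24 and 0.57 against 3.18, 3.10 and 3.65 (limma adjusted p = 0.0142). No arrays overlapped in these 4 genes.

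Higher in SVZ cells were Cfap65, a protein of the ciliary axoneme, at 1.01, 2.02 and 2.72 against -2.33, -2.49 and -2.77 (limma adjusted p = 0.0124), and Daw1, an assembly factor of axonemal dynein, at 0.15, -0.83 and -0.50 against -3.91, -3.88 and -4.73 (limma adjusted p = 0.0085). Also higher was Hmgb2, a high mobility group protein, which read 4.04, 4.20 and 3.83 against 0.32, 0.037 and 0.38 (difference 3.78, SE 0.32, limma adjusted p = 0.00323). Chaf1a, a subunit of the chromatin assembly factor of replication, read 1.34, 1.43 and 1.06 against -1.84, -2.38 and -2.38 (limma adjusted p = 0.0139). The groups did not overlap in any of these 4 genes.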
